A study of Mus musculus with 6 samples.

Results

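The proteasome subunit genes were taken by symbol: every mouse gene whose name starts with Psma, Psmb, Psmc, Psmd, Psme, Psmf or Psmg and a digit. The expression table held 51 such genes among 25112 named genes, and 41 of them had an adjusted p-value, out of 11038 genes with one. Where a gene had several RefSeq transcripts, its row with the highest base mean stood for it. Membership went by names only and used no measured value, while the choice of row used the base mean.

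The cells were primary epidermal keratinocytes, the epithelial cells of the epidermis, from wild-type C57BL/6 pups at postnatal day 1 to 3. They were kept in medium with 0.05 mM calcium and transfected at 200 nM with pro-miR-148a, a precursor used to raise the microRNA miR-148a (3 libraries), or with a control small RNA named miR-Control (3 libraries). RNA was collected 48 h later. No label says whether the libraries came from separate cultures or animals, so the p-values may measure technical spread alone. Both groups were transfected, and no untransfected cells were analysed here. The comparison asks which transcripts differ once miR-148a is raised.

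The proteasome is the protease complex that degrades proteins tagged with ubiquitin. Its barrel-shaped core particle stacks rings of alpha subunits, which gate the entry, around rings of beta subunits, some of which cut. A regulatory particle caps the core: the ring of ATPases in its base unfolds the substrate, and the lid removes the ubiquitin chain. Subunits are needed in fixed proportions, and their genes are known to be raised together by the transcription factor NRF1 when proteasome activity falls short. In immune responses, interferon-induced beta subunits replace the constitutive cutting subunits. All values below come from the authors' deposited table of the comparison, which has no column per library, so no value per library, no depth per library and no spread among the 3 libraries can be given. The base mean is the authors' mean normalized count over the libraries compared, the error is the authors' standard error (SE) of the log2 fold change, and a gene is said to rise or fall where the authors' adjusted p was under 0.05.

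The table does not state which group is the numerator of its log2 fold change. Its title names the control first. MicroRNAs lower transcripts that carry a match to their seed, bases 2 to 8, and the mature strand of miR-148a (RefSeq, GRCm38.p6) (chr6:51269829-51269850, minus strand) is shown here with the seed in capitals because the reading of every sign below turns on it.
mmu-miR-148a-3p: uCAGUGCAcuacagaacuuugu
In the authors' deposited table, the 433 genes with an 8mer match (TGCACTGA) in the longest 3' UTR had a median log2 fold change of 0.10 as deposited, against 0.00 for the 9449 genes without one (difference 0.10). Genes with the match thus lay higher as deposited. The values are therefore read as control over miR-148a and turned in sign, so that a positive value means higher with miR-148a. This is a reading and not a statement of the file, and every direction below would turn with it.

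Of the constitutive core genes, 6 of 13 tested rose with miR-148a, and of the base and lid genes 12 of 15, by at most 1.34-fold. In the authors' deposited table, 18 of the 41 tested members rose, 1 fell and 22 did not pass the test. Over all 11038 tested genes, 16.7% rose and 16.8% fell. The median log2 fold change of the 41 was 0.18, against -0.01 over all tested genes, and their mean was 0.12. Of the members, 34 of the 41 (82.9%) lay above 0, against 48.9% of all. Most subunit genes are abundant, and abundant genes have smaller errors and pass more often. A background of abundant genes alone is therefore closer, but it is not matched on level. From a base mean of 1000 up, the median base mean was 7148 for the members and 2824 for all genes. Of the 29 members with a base mean of at least 1000, 18 rose (62.1%) and none fell, against 31.7% higher and 24.2% lower among all 3569 genes at that level. The median log2 fold change of those 29 was 0.24, or 1.18-fold, against 0.05 for all 3569 genes. Their values were above 0 in 28 of 29 members (96.6%), against 55.6% of those genes. The 18 that rose lay between 1.15-fold and 1.34-fold in the authors' deposited table, with SE between 0.06 and 0.08, and the lower end of that range is set by the threshold. All 29 ran from -0.02 to 0.42 on the log2 scale.

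**Figure D1:**
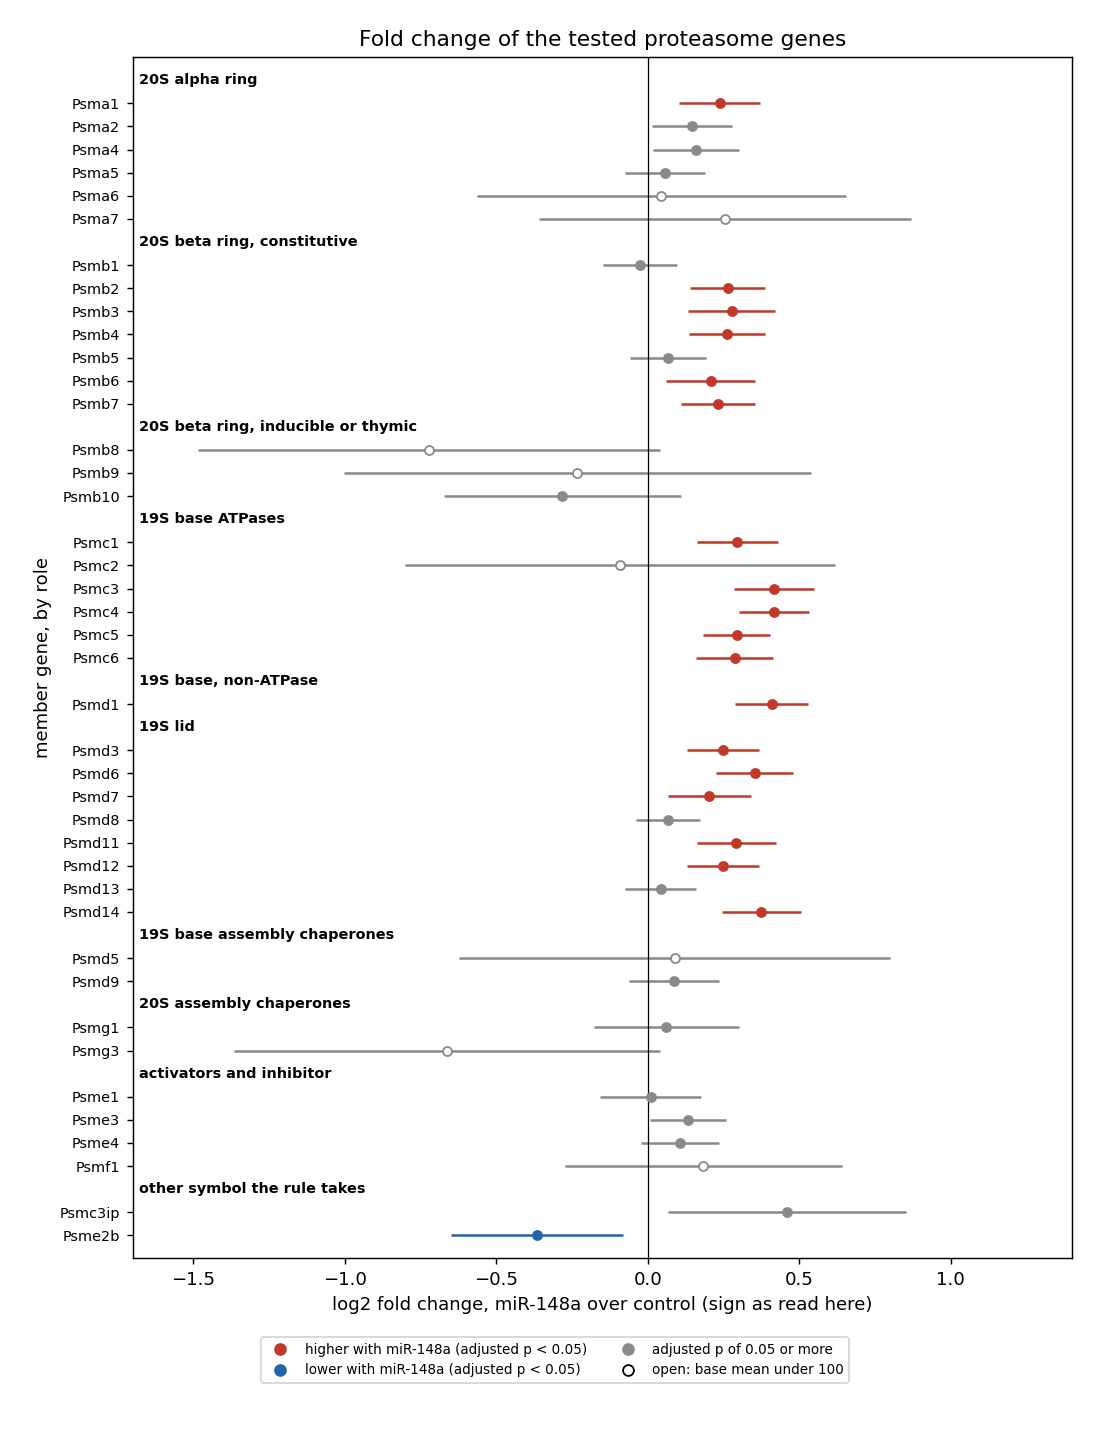
Log2 fold change (x axis) of each of the 41 tested members (y axis, grouped by role, with 20S for the core and 19S for the regulatory particle), with bars for the 95% interval from the SE in the authors' deposited table; red members rose, the blue one fell, grey ones did not pass the test, and open symbols have a base mean under 100. The 18 members that rose belong to the alpha ring, the constitutive beta ring, the ATPase ring, Psmd1 and the lid, while the inducible beta subunits Psmb8, Psmb9 and Psmb10 lie below 0 with wide bars.

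**Figure D2:**
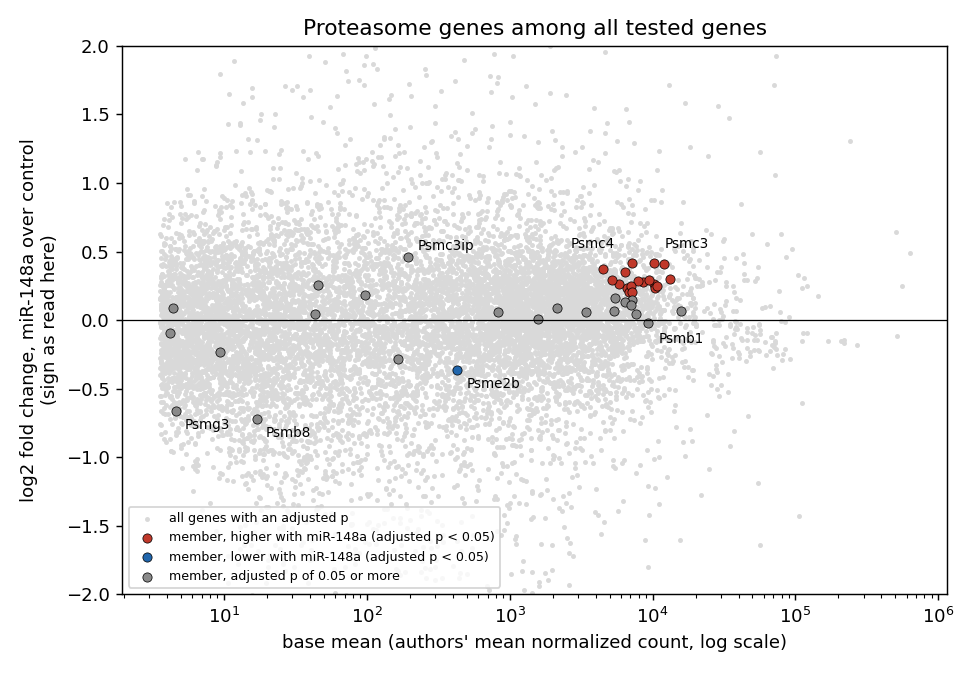
Log2 fold change (y axis) against base mean (x axis, log scale) for all 11038 tested genes in grey and the 41 tested members in colour, from the authors' deposited table; 102 genes lie beyond the y range shown. Most members sit in a compact group at high base means, and those that rose lie between 0.20 and 0.42.

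The ATPases of the base, the motor ring that unfolds substrates, rose in 5 of 6 cases. Psmc3, in the authors' deposited table, rose 1.34-fold (log2 fold change 0.42 ± 0.07 SE, adjusted p = 8.05e-09, base mean 10231) and Psmc4 also 1.34-fold (0.42 ± 0.06 SE, adjusted p = 1.45e-11, base mean 7227). Psmc1, at a base mean of 13182, rose 1.23-fold (0.30 ± 0.07 SE) in the authors' deposited table. Psmc5 rose 1.23-fold (0.29 ± 0.06 SE) and Psmc6 1.22-fold (0.29 ± 0.06 SE) in that table. These 3 had overlapping 95% intervals, of which the widest reached from 0.16 to 0.43. The sixth ATPase, Psmc2, was represented by a transcript with a base mean of only 4.19 (-0.09 ± 0.36 SE), an interval too wide to place it with or apart from the others. Psmd1, the large scaffold subunit of the base, rose 1.33-fold (0.41 ± 0.06 SE, adjusted p = 3.05e-10, base mean 11931) in the authors' deposited table. Its base partners could not be tested: the rows of the scaffold gene Psmd2 reached a base mean of 2.79 and those of the ubiquitin receptor gene Psmd4 0.172, with no adjusted p.

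In the lid, 6 of 8 genes rose. Psmd14, the metalloprotease that cuts the ubiquitin chain from the substrate, rose 1.30-fold in the authors' deposited table (0.37 ± 0.07 SE, adjusted p = 1.58e-07, base mean 4495). Psmd7, its paired subunit without that activity, rose 1.15-fold (0.20 ± 0.07 SE, adjusted p = 0.0124), the smallest rise among the 18. The scaffold genes Psmd6 (1.28-fold, 0.35 ± 0.06 SE), Psmd11 (1.22-fold, 0.29 ± 0.07 SE), Psmd12 (1.19-fold, 0.25 ± 0.06 SE) and Psmd3 (1.19-fold, 0.25 ± 0.06 SE) rose in the authors' deposited table. The other two lid genes did not pass the test. Psmd8, the member with the highest base mean (15703), had a log2 fold change of 0.07 (95% interval -0.04 to 0.17), and Psmd13 had 0.04 (-0.07 to 0.16) in the authors' deposited table. Both intervals end below the estimates of the 6 lid genes that rose.

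In the constitutive beta ring, 5 of 7 genes rose. In the authors' deposited table the structural subunits Psmb3 (1.21-fold, 0.28 ± 0.07 SE, base mean 8618), Psmb2 (1.20-fold, 0.26 ± 0.06 SE) and Psmb4 (1.20-fold, 0.26 ± 0.06 SE, base mean 10186) rose by nearly the same amount. Psmb1, a further structural subunit, had -0.02 (95% interval -0.15 to 0.10, base mean 9256), and its interval ends below the estimates of those 3. The cutting subunits differed in whether they passed. Psmb7, which carries the trypsin-like activity, rose 1.17-fold (0.23 ± 0.06 SE, adjusted p = 0.000934), and Psmb6, with the caspase-like activity, rose 1.15-fold (0.21 ± 0.08 SE, adjusted p = 0.0213), both by the authors' deposited table. Psmb5, which carries the chymotrypsin-like activity and is the main target of proteasome inhibitor drugs, had 0.07 (-0.06 to 0.19, adjusted p = 0.489) and did not pass. The difference between Psmb5 and the other two was not tested.

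In the alpha ring, 1 of 6 tested genes rose. Psma1 rose 1.18-fold (0.24 ± 0.07 SE, adjusted p = 0.00229, base mean 6626), as given in the authors' deposited table. Psma4 (0.16 ± 0.07 SE, adjusted p = 0.0808) and Psma2 (0.15 ± 0.07 SE, adjusted p = 0.0819) did not pass, with 95% intervals that reached down to 0.02, and Psma5 had 0.06 ± 0.07 SE. Psma6 and Psma7 were represented by transcripts whose base means in the authors' deposited table were 43.0 and 45.5, with SE of 0.31. All 3 transcripts of Psma3 and both of Psma8, known as the testis-specific alpha subunit, stood at 0. Set side by side in the authors' deposited table, the core particle (alpha and constitutive beta genes) had 6 of 13 tested genes higher with a median of 0.21, and the base and lid had 12 of 15 higher with a median of 0.29. Whether the particles differ was not tested.

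The inducible beta subunits, which interferon switches on and which form the immunoproteasome, had low base means and values on the other side of 0. In the authors' deposited table Psmb8 had a base mean of 17.0 and a log2 fold change of -0.72 (95% interval -1.48 to 0.04, adjusted p = 0.158). Psmb10 (base mean 165) had -0.28 (-0.67 to 0.11) and Psmb9 (base mean 9.33) -0.23 ± 0.39 SE (upper bound 0.54). None of the 3 passed the test, and at these base means a rise of the size seen in the constitutive genes lies inside the interval of Psmb9 alone. The deposited SE does not keep growing as base means fall, so these intervals may be too narrow. Such a rise in Psmb8 or Psmb10 is therefore not excluded. Psmb11, the thymus-specific subunit, had a base mean of 0.942 and no adjusted p.

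Of the members, the tested regulators and assembly factors listed in this paragraph did not pass the test. The nuclear activator gene Psme3 had 0.13 ± 0.06 SE (adjusted p = 0.104, base mean 6435), as listed in the authors' deposited table. Psme4, the large activator PA200, had 0.11 ± 0.07 SE (base mean 7022), and Psme1, a subunit of the interferon-induced activator, 0.01 ± 0.09 SE (base mean 1579). The regulator gene Psmf1 had 0.18 ± 0.23 SE at a base mean of 97.6. Of the chaperones that assemble the base, Psmd9 had 0.09 ± 0.08 SE (base mean 2137), Psmd5 was near the lower limit of the tested range (base mean 4.37) and both transcripts of Psmd10 stood at 0, by the authors' deposited table. Of the core assembly chaperones, Psmg1 had 0.06 ± 0.12 SE (base mean 822) and Psmg3, at a base mean of 4.61, -0.66 ± 0.36 SE (adjusted p = 0.158), while Psmg2 and Psmg4 had base means of 1.33 and 0.655 and no adjusted p in that table.

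The symbol rule also takes 3 genes that encode no subunit of the particles above. Psme2b, a close copy of the activator gene Psme2, was the only member that fell (1.29-fold lower in the authors' deposited table, -0.37 ± 0.14 SE, adjusted p = 0.0378, base mean 430). The transcripts of Psme2 itself had base means of 1.13 and 0.842, and reads of near-identical copies may be assigned to either, so the value is uncertain for both genes. Psmc3ip, a partner of the meiotic recombination proteins named after its binding to Psmc3, had 0.46 ± 0.20 SE (adjusted p = 0.0642, base mean 195) and did not pass. Psme3ip1, which binds Psme3, had a base mean of 2.89 at most and no adjusted p.

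Whether a member could be measured went with its number of transcripts. Of the 36 members with 1 transcript in the authors' deposited table, 35 were tested and 29 had a base mean of at least 1000. Of the 15 members with 2 or more transcripts, 6 were tested, and none had a base mean above 97.6. The 0 or low base means of Psma3, Psma6, Psma7, Psmc2, Psmd2 and Psmd4 cannot be read as low gene levels, since the table counts transcripts and these genes encode subunits of the same particle as genes with high base means. The 10 members with no adjusted p and the 6 tested members with several transcripts say little about their genes.

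Per kilobase of transcript (GENCODE M21 length of the matching accession), the 29 members with a base mean of at least 1000 spanned a 13.7-fold range, from 823 to 11250. The 7 constitutive beta genes had base means per kb between 5265 (Psmb1) and 11250 (Psmb3), a 2.14-fold range. The 4 well-measured alpha genes lay between 2456 (Psma2) and 5517 (Psma1), and 5 ATPases between 3557 (Psmc6) and 8286 (Psmc1), computed from the authors' deposited table. The lid ran from 1829 for Psmd11 to 10385 for Psmd8, a 5.68-fold range. The activator gene Psme3, at 2416, lay within the range of the lid. Other activators and chaperones stood lower, with Psme1 at 1420, Psme4 at 1082, Psmd9 at 823 and Psmg1 at 787 per kb. Among the tested members with 1 transcript, the inducible genes stood lowest: Psmb10 at 126, Psmb8 at 10.4 and Psmb9 at 6.90 per kb, against 6011 for the constitutive Psmb5. These levels are means over both groups, and the errors of base means are not given in the table.

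**Figure D3:**
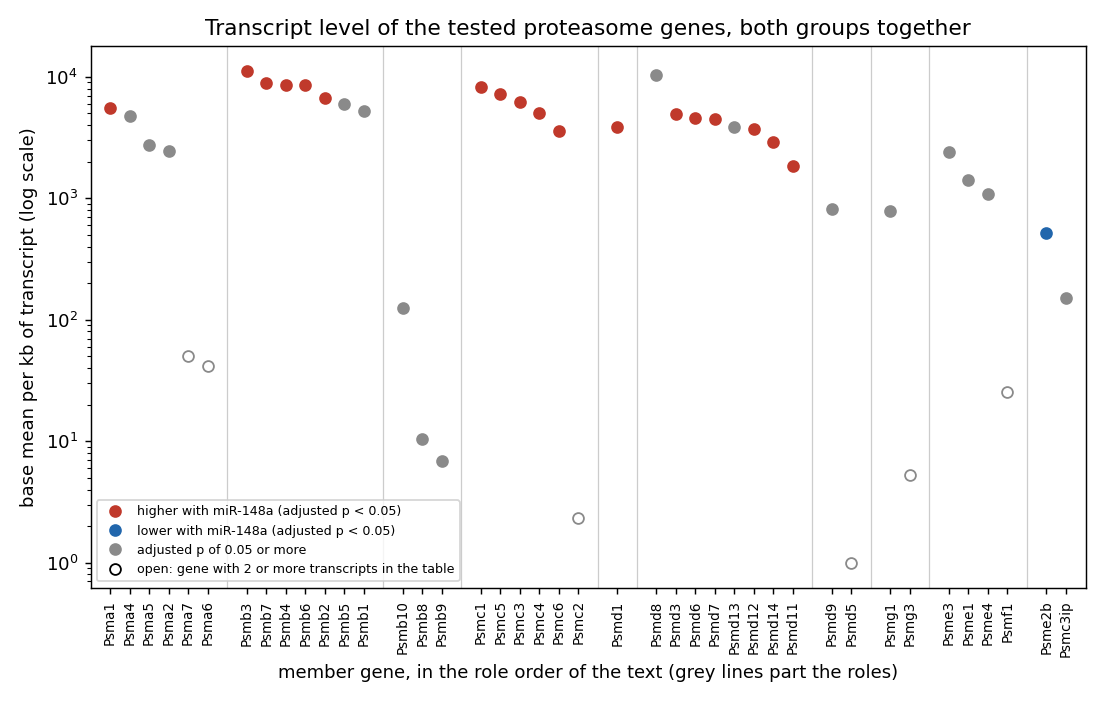
Base mean per kb of transcript (y axis, log scale) of the 41 tested members (x axis, grouped by role and sorted within a role), over both groups together, coloured as in the plot of members by role; open symbols are genes with 2 or more transcripts in the table. Constitutive core, base and lid genes with filled symbols lie between 1829 and 11250, and the inducible subunits Psmb8, Psmb9 and Psmb10 between 6.90 and 126.

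Seed matches for miR-148a were counted in the 3' UTRs of the members. Of the 50 members with an annotated 3' UTR, 1 carried an 8mer, 3 a 7mer-m8 (TGCACTG), 2 a 7mer-A1 (GCACTGA) and 6 a 6mer (GCACTG) as their best match, and 38 carried none. Counting 8mers and 7mer-m8 matches, 4 of 41 tested members had one (9.76%), against 15.8% of 9882 tested genes. Whether these shares differ was not tested, and UTR length was not taken into account. The 4 are shown from GENCODE M21 transcripts, with the match in capitals and 10 bases before it, because they are the members that miR-148a could pair with best.
Psmd13: ggagctttggTGCACTGAtgtgaagag
Psmd1: aactcattcaTGCACTGtggtactacc
Psmd8: acagtgccagTGCACTGtgtgatagtc
Psmc3ip: ataacaaaaaTGCACTGtgggtattta
The matches start at base 815 of 877 in Psmd13, 810 of 2200 in Psmd1, 49 of 1193 in Psmd8 and 539 of 577 in Psmc3ip, counted from the first base after the stop codon. In the authors' deposited table, all 4 genes had values above 0: Psmd1 rose 1.33-fold, and the log2 fold changes of Psmd13 (0.04), Psmd8 (0.07) and Psmc3ip (0.46) did not pass. Psmd13 and Psmd8 are the 2 lid genes that did not rise, which was noticed after the values were seen. Whether the matches bear on any of these values was not tested. A match in a UTR is not evidence of pairing.

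The 250 bases before their annotated starts were searched on both strands for 3 motifs: TGACNNNGC, the core of the antioxidant response element that NRF1 and NRF2 bind, CCAAT, bound by NF-Y, and CCGGAAG, bound by ETS factors. Of 43 members with a promoter in the RefSeq table (GRCm38.p6), 5 held TGACNNNGC (11.6%), against 11.5% of all 27025 genes in the table. CCAAT was held by 16 (37.2%), against 37.5%. CCGGAAG was held by 13 (30.2%), against 7.83%, though the table of all genes also holds noncoding genes and pseudogenes. Of the 13 members that rose and had a promoter in the table, 3 held TGACNNNGC, 4 CCAAT and 5 CCGGAAG. The promoters of Psmc6 and Psmd12, which rose and hold both TGACNNNGC and CCGGAAG, of Psmc4, which had the lowest adjusted p and holds none, and of Psmb5, which did not pass and holds TGACNNNGC, are shown with matches in capitals.
Psmc6: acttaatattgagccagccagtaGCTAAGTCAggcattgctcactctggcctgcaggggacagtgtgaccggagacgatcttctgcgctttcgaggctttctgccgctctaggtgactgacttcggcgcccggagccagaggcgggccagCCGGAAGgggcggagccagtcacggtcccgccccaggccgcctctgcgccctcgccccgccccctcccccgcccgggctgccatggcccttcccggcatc
Psmd12: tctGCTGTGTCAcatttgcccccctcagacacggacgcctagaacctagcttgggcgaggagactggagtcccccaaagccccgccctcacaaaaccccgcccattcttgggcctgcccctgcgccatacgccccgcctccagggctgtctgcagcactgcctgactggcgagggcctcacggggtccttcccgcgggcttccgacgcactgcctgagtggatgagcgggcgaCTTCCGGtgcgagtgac
Psmc4: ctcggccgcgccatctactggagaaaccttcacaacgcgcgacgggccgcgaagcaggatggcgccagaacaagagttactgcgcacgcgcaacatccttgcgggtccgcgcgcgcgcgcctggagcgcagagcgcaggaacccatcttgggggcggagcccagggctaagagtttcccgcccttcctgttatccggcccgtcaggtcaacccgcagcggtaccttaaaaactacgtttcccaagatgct
Psmb5: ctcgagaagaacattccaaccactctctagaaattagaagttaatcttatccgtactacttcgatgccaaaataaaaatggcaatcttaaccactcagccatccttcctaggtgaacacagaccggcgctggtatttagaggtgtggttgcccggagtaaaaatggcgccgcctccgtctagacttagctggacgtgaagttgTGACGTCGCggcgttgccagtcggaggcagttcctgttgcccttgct
In GRCm38.p6 these are chr14:45329574-45329823 (plus strand), chr11:107479278-107479527 (plus strand), chr7:28050093-28050342 (minus strand) and chr14:54617996-54618245 (minus strand), each the 250 bases that end just before the start. Counted back from the start, TGACNNNGC lies at -227 to -219 in Psmc6, -247 to -239 in Psmd12 and -47 to -39 in Psmb5, and CCGGAAG at -100 to -94 in Psmc6 and -17 to -11 in Psmd12. These matches describe letters in a window and are no evidence of binding.

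Genes that work with the proteasome but bear other names rose in some cases and fell in others. Of 23 such genes 14 were tested in the authors' deposited table, of which 6 rose, 3 fell and 5 did not pass (median 0.16), beside the 16.7% higher and 16.8% lower among all tested genes. Vcp, the ATPase that extracts ubiquitin-tagged proteins, rose 1.31-fold (0.39 ± 0.05 SE, adjusted p = 3.6e-12, base mean 30111), and Adrm1, a ubiquitin receptor of the base, rose 1.25-fold (0.32 ± 0.06 SE), in the authors' deposited table. The ubiquitin-activating enzyme gene Uba1 (1.22-fold), the shuttle genes Ubqln2 (1.21-fold) and Ubqln4 (1.16-fold) and the proteasome-binding Zfand5 (1.15-fold) rose as well. The 3 that fell were Pomp, the chaperone that matures the core (1.14-fold lower, -0.19 ± 0.08 SE, adjusted p = 0.0437), Ddi2, the protease that activates NRF1 (1.22-fold lower, -0.28 ± 0.08 SE, adjusted p = 0.00271), and the ubiquitin gene Ubb. By the authors' deposited table, Ubb fell 1.95-fold at a base mean of 59.4. Its coding repeats have near-identical copies elsewhere in the genome, so its value is uncertain. Sem1, a small lid subunit, had 0.03 ± 0.07 SE, and Nfe2l1, the gene of NRF1 itself, had 0.25 ± 0.31 SE (base mean 47.8), both by the authors' deposited table.

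Genes of interferon response and antigen presentation, among which the immunoproteasome works, were given for comparison with Psmb8, Psmb9 and Psmb10. Of 16 genes 9 were tested in the authors' deposited table, of which 1 rose, 3 fell and 5 did not pass (median -0.27). Among all tested genes, 16.7% rose and 16.8% fell. Nlrc5, the transactivator of class I genes and of Psmb9, fell 4.88-fold (-2.29 ± 0.31 SE, adjusted p = 4.87e-12, base mean 68.7). The peptide trimmer gene Erap1 fell 1.53-fold and B2m, the light chain of class I molecules, 1.49-fold, whereas the class I heavy chain gene H2-D1 rose 1.51-fold in the authors' deposited table. H2-D1 has near-identical relatives, and its value is uncertain for that reason. Tap1 and Tapbp, the peptide transporter subunit and its partner, were listed at 0.

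Genes of the antioxidant factor NRF2, which has been linked to inducible proteasome expression in mouse cells, went both ways. Of 12 genes (NRF2 itself, its inhibitor and 10 targets) 11 were tested in the authors' deposited table, of which 5 rose, 1 fell and 5 did not pass (median 0.09). The shares among all tested genes were 16.7% higher and 16.8% lower. The heme oxygenase gene Hmox1 rose 2.39-fold (1.26 ± 0.06 SE, base mean 18396), the quinone reductase gene Nqo1 1.85-fold and the pentose phosphate enzyme gene G6pdx 1.82-fold, in the authors' deposited table. The NRF2 inhibitor gene Keap1 rose 2.0-fold at a base mean of 139. Srxn1 fell 1.13-fold, and the glutathione synthesis gene Gclm (-0.18 ± 0.09 SE, base mean 1331) did not pass. The glutathione synthesis gene Gclc (0.01 ± 0.28 SE) and the thioredoxin reductase gene Txnrd1 (-0.56 ± 0.25 SE) did not pass either. Gclc and Txnrd1 were represented by transcripts with base means of only 71.5 and 81.5. Nfe2l2, the gene of NRF2, had 0.09 ± 0.07 SE in the authors' deposited table.

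**Figure D4:**
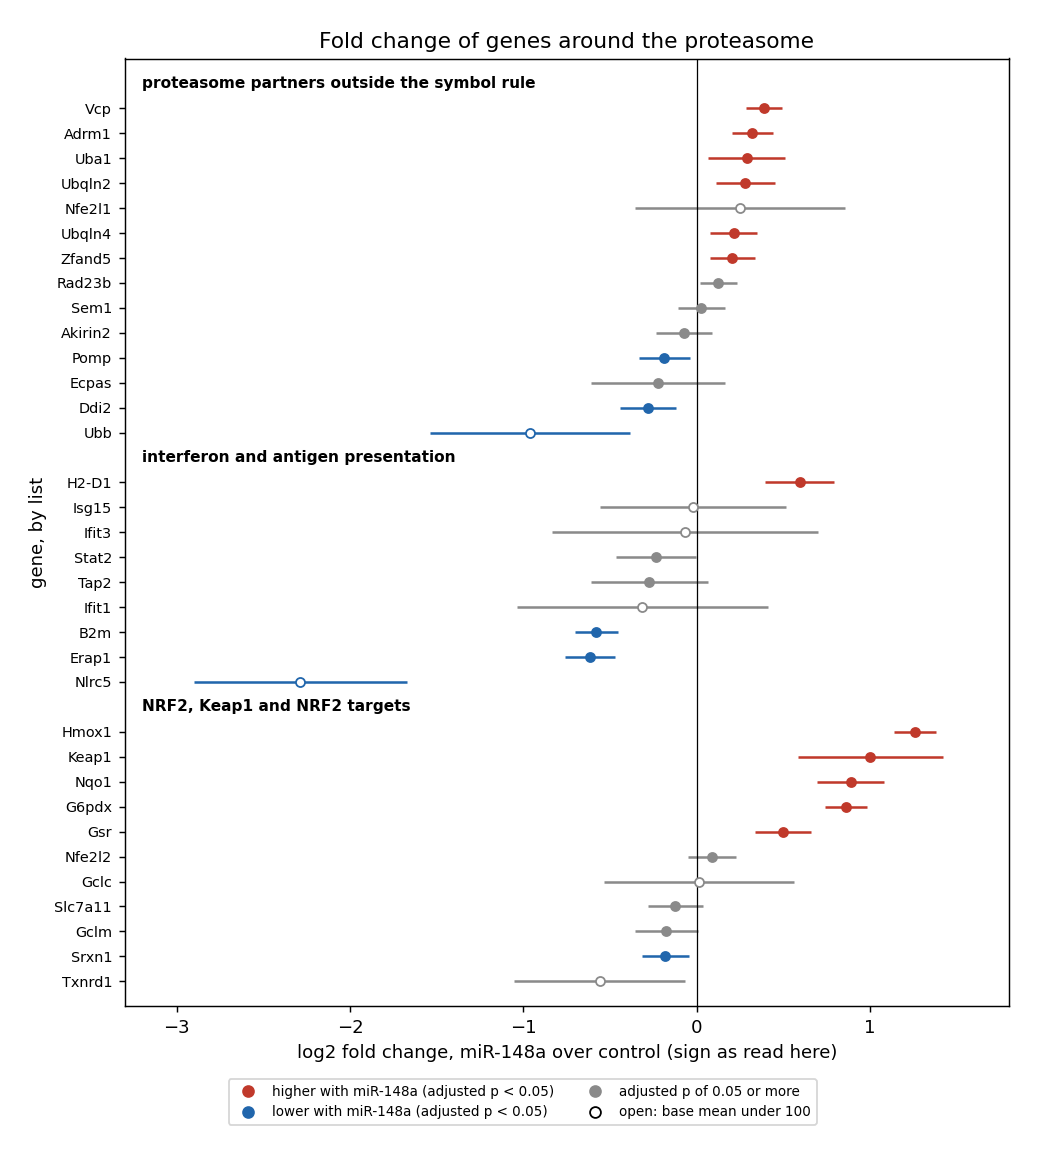
Log2 fold change (x axis) of the tested genes (y axis) in the lists of proteasome partners, interferon and antigen presentation genes, and NRF2 genes, with bars for the 95% interval from the SE in the authors' deposited table; colours and open symbols as in the plot of members by role. Vcp (0.39) and Adrm1 (0.32) lie with the subunit genes, Nlrc5 (-2.29) and Ubb (-0.96) at the low end, and Hmox1 (1.26) at the high end.

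In the authors' deposited table of gene ontology (GO) categories, the proteasome complex ranked 4th of 951 categories by over-representation among changed genes. It held 20 changed genes of 38 (52.6%), with an adjusted p of 0.00179, and was 1 of 5 categories with an adjusted p under 0.05 in that table. The table does not give a direction or the names of the genes, and it rests on the same libraries, so it is no separate evidence. It also gives neither the rule by which a gene counts as changed nor the share changed over all its genes. By the calls used here, 3700 of 11038 tested genes changed in either direction, and the rule behind the GO counts may differ.

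Markers of the labelled cells and of others the skin could contribute moved beside these changes, and their part in them was not tested. The keratinocyte genes Krt5 and Dsp had base means of 630448 and 269425 by the authors' deposited table, while Trp63, with several transcripts, was listed at 0. The counts of markers below stand beside 16.7% higher and 16.8% lower among all tested genes. Among 12 tested keratinocyte markers 2 rose and 5 fell. Dsg3 was 1.31-fold lower, Sfn 1.16-fold and Dsp 1.13-fold by the authors' deposited table. Col17a1, Itga6, Itgb4, Krt14 and Perp did not pass the test. The keratins of the basal layer Krt15 and Krt5 rose 3.12-fold and 1.41-fold, and the keratins of the differentiating layers Krt1 and Krt10 fell 2.49-fold and 1.84-fold in the authors' deposited table, so these changes are larger than that of any proteasome gene called. Among 11 tested fibroblast markers 8 fell and none rose (median -0.42, 2 of 13 listed at 0), with Col1a1 at a base mean of 11119. Of 9 immune markers 4 were tested, and 2 fell (Lyz2 and C1qa) and 1 rose (Csf1r), with Ptprc, Cd74, Cd207 and Adgre1 listed at 0. Of 5 tested melanocyte markers 1 fell, and of 2 tested endothelial markers Kdr rose and Vwf fell. In bulk RNA, a change in the share of a cell type and a change in RNA per cell cannot be told apart.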

How the data were processed

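RNA sequencing compared 3 libraries with pro-miR-148a and 3 with the control small RNA, grouped by their treatment label. The values are the authors' own. Per the file headers, the authors' table gives for each of 42885 RefSeq transcripts a signal called base mean (mean normalized counts), the log2 fold change with its SE, a Wald score, and p-values before and after adjustment. The submitters' processing notes name DESeq2 and mm9 without saying what for. Aligner, counter and gene models: not given in the sources used here. The Wald score equals the log2 fold change over its SE to within 1.69e-07, and the adjusted p equals a Benjamini-Hochberg adjustment over 11757 transcripts (largest relative difference 0.00885). The highest base mean among untested transcripts was 3.56. The SE never exceeded 0.39, even at low base means. It was smaller again at the lowest, with 0.15 for Psmd4 (base mean 0.172) and 0.20 for Psmb11 (0.942), against 0.39 for Psmb9 (9.33). Whether the authors shrank the folds is not stated. Shrinkage would bring those of weakly counted transcripts nearer 0, and their intervals with them. Depth per library is unknown, and no interval that needs it is given.

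Accessions were paired with symbols through RefSeq (GRCm38.p6); 42739 of 42885 matched. As mm9 differs from that build, no position of a row is printed. Intervals (95%) take the SE as that of a normal distribution and are not adjusted for the number of genes. The longest 3' UTR (at least 20 bases) and transcript lengths came from GENCODE M21, and miRNA and promoter sequences from RefSeq. The main calls are the authors'. Among the alternatives, a Wald test on recentred values and a new adjustment over genes were computed from the authors' fold changes, SE and p-values. The recentred test was tried on simulated data with few changed genes, each changed by more than any tested member here. It was not tried where as many genes change as in these data. Alternatives were the threshold, a base mean minimum, the choice of row, recentring and the adjustment over genes.

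Members, companion lists (proteasome partners, interferon and antigen presentation, NRF2), markers and motifs were chosen with earlier results of these data known. Some genes of the partner list are not reported here and are left out of its counts. By rule, every member is accounted for. Members that rose or fell, the cutting subunits, the most abundant per kb and those with no test are named, as are up to 4 genes of largest change per companion list. The keratinocyte markers are all named. The further companion genes and the other markers named were chosen after their values were seen, as were the 4 promoters shown. Python 3.11.15, pandas 2.3.3, numpy 2.4.6, scipy 1.17.1 and matplotlib 3.10.9 were used.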

Additional observations from a re-analysis of the deposited data

How the results depend on the processing

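With the calls of the authors' deposited table, 19 members passed (18 higher, 1 lower). The same count was obtained with values recentred on the median of all genes (-0.01) and with the adjustment over genes. A base mean of at least 100 (33 members, and 3193 of 6423 genes called) and the tested row with the lowest base mean also gave 19, but neither could have changed it: the lowest base mean of a called member was 430, and no member had more than 1 tested row. An adjusted p under 0.01 left 16, all higher, without Psmb6, Psmd7 and Psme2b, beside 2880 of 11038 genes in all. Recentring on the median of abundant genes (0.05, base mean of at least 1000, added after seeing the data) left 17 (16 higher, 1 lower), without Psmb6 and Psmd7. There the sign of 3 members that do not pass the test turned: Psma6 to -0.00039, Psmd13 to -0.00238 and Psme1 to -0.035. The median of the 41 tested members, 0.18, lay between 0.12 (mean in place of median) and 0.23 (base mean of at least 100) under the alternatives. Among the proteasome partners, 9 genes passed and 7 did at an adjusted p under 0.01 (5 higher, 2 lower). The counts for interferon genes (4) and NRF2 genes (5 in place of 6) changed little at that threshold. The 8mer difference that sets the reading of the sign was 0.15 at base means from 100 up and 0.14 from 1000 up, both added after seeing the data. No paired analysis was possible because the table has no column per library; for the same reason no library could be left out in turn, and outlying libraries could not be looked for. The SE of Psmb8 and Psmb9 reached 0.39 and that of Psmb10 was 0.20, so changes of the size seen in other members may not pass the test there.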

Other observations

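The authors' deposited GO table holds few other categories of the ubiquitin system, and none of those passed. In it the ubiquitin ligase complex had 11 changed genes of 49 (22.4%), protein polyubiquitination 3 of 30 (10.0%), ubiquitin-protein transferase activity 5 of 64 (7.81%) and thiol-dependent ubiquitin-specific protease activity 1 of 13 (7.69%), each with an adjusted p of 1 for over-representation. The 20 of 38 genes of the proteasome complex stand beside these values. The share changed over all genes in the GO table is not given. Whether the categories differ from each other was not tested.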
